A study of Homo sapiens with 20 samples.

Results

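The 35 genes described here encode the route of pyruvate into mitochondria, the pyruvate dehydrogenase complex with its kinases and phosphatases, the enzymes of the citric acid cycle, and the transaminases, malate dehydrogenases and malic enzymes that exchange its intermediates with the cytosol. They were taken by gene symbol, and all 35 of the 35 symbols sought were present once among the 58735 identifiers of the count tables. RNA came from AC16, an established human line made by fusing ventricular cardiomyocytes with a transformed fibroblast line. Cells at an air–liquid interface met either filtered air (5 mRNA libraries) or e-cigarette aerosol (5 mRNA libraries), and both groups carried no other treatment or genetic change in the labels. The design text calls the libraries biological replicates and does not say whether each was a separate culture, so p-values measure the spread between these libraries. The liquid, the dose and the duration of the aerosol are not stated in the labels.

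Pyruvate, the end product of glycolysis, enters the mitochondrion through a carrier and is turned into acetyl-CoA by the pyruvate dehydrogenase complex. Kinases switch that complex off by phosphorylation, and phosphatases switch it back on. The citric acid cycle then oxidises the acetyl group and feeds electrons to the respiratory chain, and in heart muscle, which lives mainly on oxidative metabolism, both systems are abundant. Malate and aspartate carry reducing equivalents between cytosol and matrix.

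The filtered air libraries held 65902331 to 88806394 counts each and the aerosol libraries 60482726 to 72099157. Aerosol libraries 4 and 5 lay away from the remaining 8 on principal component 1, with scores of 112 and 254 against -62.0 to -1.67, so the call of CS, the counts of members and the values of several members are also given without them. Mitochondrially encoded genes took 7.75 to 10.3% of counts in filtered air and 12.4 to 19.5% after the aerosol, highest in aerosol libraries 4 and 5. The nuclear RNA MALAT1 took 0.291 to 0.390% and 0.784 to 3.81%, highest in aerosol library 5. With the mitochondrially encoded genes, MALAT1 and NEAT1 all left out, CS was again the 1 member called (edgeR adjusted p = 0.0499), and the part of these shifts in the values below was not tested further. Of 12 cardiomyocyte markers, 7 (TNNT2, MYH6, MYH7, MYL2, MYL7, NKX2-5 and TBX5) were at 0 in all 10 libraries, where a count of 0 allows at most 3 counts, or 0.0555 CPM (the usual depth-scaled count), by counting error alone, and only GATA4 averaged at least 1 CPM. The labelled cell type was therefore not carried by its defining contractile markers at the level of mRNA. The 8 fibroblast markers together reached 3002 to 3605 CPM in filtered air and 2759 to 3466 CPM after the aerosol. COL1A1 held most of these sums, with means of 2208 and 1897 CPM, whereas PDGFRA and TCF21 had means of 1.01 to 2.68 CPM. Markers of endothelium and epithelium summed to at most 3.28 and 3.12 CPM. Among 4 leukocyte markers CD68 held nearly all of the 33.2 to 60.6 CPM, and no marker passed the test.

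Promoter windows of 300 bases are shown for the members on which the results turn, CS, MDH2, GOT1 and GOT2, whose aerosol and filtered air libraries did not overlap, and for PDK1, a textbook target of hypoxia-inducible factor. Each runs from 250 bases before to 50 bases after a RefSeq start (GRCh38.p14), 5′ to 3′ on the gene's strand. IDH2, also without overlap, is not shown, and its only RefSeq window lies inside the gene. Of the 2 windows of PDK1 the one with matches is shown, although it too lies inside the span of its gene. Capitals mark matches, which may overlap, on either strand, to the letters ACGTG or GCGTG (the cores of hypoxia response elements), GCGCATGCG (nuclear respiratory factor 1), AAGGTCA (estrogen-related receptors) or CCGGAAG (ETS factors).

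CS, chr12:56300281-56300580, minus strand: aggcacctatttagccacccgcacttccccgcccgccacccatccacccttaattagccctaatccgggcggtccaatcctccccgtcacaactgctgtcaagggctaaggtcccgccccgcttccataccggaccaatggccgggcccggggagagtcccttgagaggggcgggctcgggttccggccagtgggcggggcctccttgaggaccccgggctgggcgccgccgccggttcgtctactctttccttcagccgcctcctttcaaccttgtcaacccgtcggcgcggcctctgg

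MDH2, chr7:76047856-76048155, plus strand: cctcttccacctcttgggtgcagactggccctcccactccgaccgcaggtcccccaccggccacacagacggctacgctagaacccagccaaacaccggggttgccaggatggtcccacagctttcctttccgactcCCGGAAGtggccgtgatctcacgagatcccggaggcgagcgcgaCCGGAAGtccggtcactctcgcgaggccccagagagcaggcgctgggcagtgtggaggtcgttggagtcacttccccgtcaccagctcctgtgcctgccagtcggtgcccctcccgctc

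GOT1, chr10:99430575-99430874, minus strand: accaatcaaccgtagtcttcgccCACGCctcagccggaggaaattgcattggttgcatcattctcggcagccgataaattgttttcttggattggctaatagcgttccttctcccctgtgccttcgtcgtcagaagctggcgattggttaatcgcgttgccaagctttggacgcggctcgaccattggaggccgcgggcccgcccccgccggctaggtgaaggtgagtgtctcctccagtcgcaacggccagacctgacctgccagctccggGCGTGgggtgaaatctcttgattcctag

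GOT2, chr16:58734267-58734566, minus strand: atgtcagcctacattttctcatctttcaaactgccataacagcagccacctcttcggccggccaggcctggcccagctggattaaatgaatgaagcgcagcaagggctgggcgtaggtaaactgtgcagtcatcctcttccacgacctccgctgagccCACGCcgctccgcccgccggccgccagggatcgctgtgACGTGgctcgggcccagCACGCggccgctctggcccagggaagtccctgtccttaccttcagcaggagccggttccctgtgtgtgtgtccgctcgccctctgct

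PDK1, chr2:172555840-172556139, plus strand: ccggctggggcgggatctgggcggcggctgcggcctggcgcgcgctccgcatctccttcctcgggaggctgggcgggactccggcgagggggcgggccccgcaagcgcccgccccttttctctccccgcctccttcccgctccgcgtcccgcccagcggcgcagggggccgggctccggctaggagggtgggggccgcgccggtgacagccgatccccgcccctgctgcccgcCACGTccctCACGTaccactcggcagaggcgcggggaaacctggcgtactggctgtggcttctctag

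The CS window held none of these letters, which says nothing of the factors that act there. The MDH2 window held CCGGAAG, those of GOT1 and GOT2 held GCGTG, and those of GOT2 and PDK1 held ACGTG. The other PDK1 window, which starts farther upstream, held none of the letters searched, and the IDH2 window that is not shown held GCGTG. RefSeq windows were found for 33 of the 35 genes, 47 windows in all because some genes have several starts. ACGTG was present in 14 of the 47 (29.8%) against 21.4% of 35116 promoters in the table, and GCGTG in 27 (57.4%) against 36.5%. CCGGAAG was present in 5 (10.6%) against 10.3%, AAGGTCA in 1, that of SUCLA2 (2.13%), against 3.92%, and GCGCATGCG in 0 against 1.92%. The members' windows were also richer in G and C, with a median of 66.7% against 58.7% over all promoters, and the part of base composition in the motif shares was not tested.

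After the aerosol, 1 of the 35 genes changed, CS, which encodes the citrate synthase that opens the cycle, and it fell. No member rose. All 35 passed the filter on low counts. In percent, 2.86% of the members fell, against 1.39% of the 20166 genes tested that fell and 1.62% that rose (edgeR's quasi-likelihood F test, p adjusted by Benjamini-Hochberg over all genes tested and under 0.05). The median log2 fold change of the 35 was -0.15, with 27 of them below 0 (20 under upper-quartile scaling and 31 with library size alone), and the median over all genes tested was -0.0042, with 50.4% below 0. Those scalings moved the median over all genes as well, to 0.08 and -0.10. In 5 members, CS, IDH2, GOT2, MDH2 and GOT1, every aerosol library lay below every filtered air library. That is 14.3% of the members, against 3.93% of all genes tested, and no member lay wholly above, against 3.52% of all genes. Before adjustment 9 members were lower at p under 0.05 (25.7%, against 9.48% of all genes) and 0 were higher (against 8.78%). DESeq2 called 4 members lower, CS, IDH2, MDH2 and GOT2 (against 3.41% of the 23879 genes with an adjusted p in that fit), and 0 higher (against 4.82%). In edgeR, the 8 members other than CS with an unadjusted p under 0.05 did not pass after adjustment (edgeR adjusted p from 0.0576 to 0.236). In such bulk RNA, fewer transcripts per cell and a change in the mix of cells cannot be told apart.

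**Figure D1:**
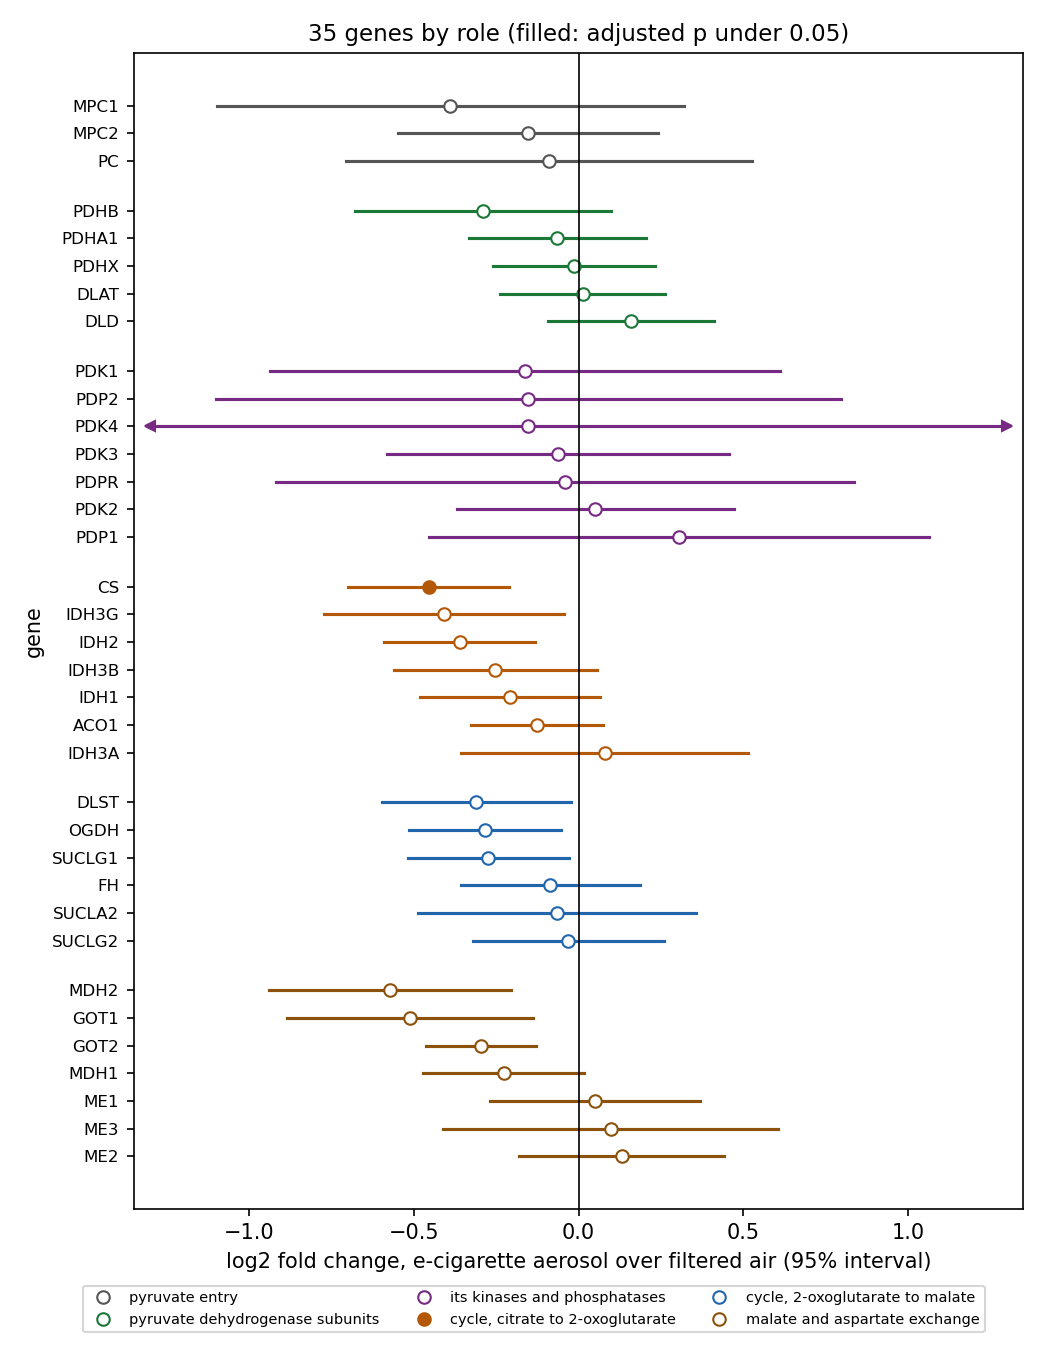
Log2 fold change of each of the 35 genes (e-cigarette aerosol over filtered air, n = 5 libraries per group) with its 95% interval from the edgeR fit, grouped by role; arrows mark intervals that run past the axis. The filled point is CS, at -0.46, the member that passed an adjusted p of 0.05, and the interval of PDK4 runs past both ends of the axis.

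Pyruvate reaches the complex through the mitochondrial pyruvate carrier, a pair of small membrane proteins encoded by MPC1 and MPC2, and pyruvate carboxylase (PC) turns it into oxaloacetate instead. None of the 3 passed the test, and none of the 15 members of this and the next 2 groups was past an unadjusted p of 0.05. MPC1 stood at 4.40, 4.98, 5.19, 3.16 and 4.08 CPM in filtered air libraries 1 to 5 and at 2.52, 1.67, 2.96, 4.84 and 4.66 CPM in aerosol libraries 1 to 5. MPC2 stood at 17.9, 19.3, 15.1, 14.9 and 14.4 CPM in filtered air and at 11.3, 12.7, 13.5, 16.6 and 19.2 CPM after the aerosol. For both genes aerosol libraries 1 to 3 lay below every filtered air library and aerosol libraries 4 and 5 lay among them. The log2 fold changes were -0.39 ± 0.33 (standard error) for MPC1 and -0.15 ± 0.18 for MPC2, with adjusted p of 0.599 and 0.735 (edgeR, n = 5 per group). PC was at 11.3 ± 2.25 and 10.6 ± 3.72 CPM (mean ± SD), with overlapping groups and aerosol library 4 lowest at 4.19.

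The pyruvate dehydrogenase complex is built from the E1 subunits PDHA1 and PDHB, which decarboxylate pyruvate, the E2 transacetylase DLAT, which carries the acetyl group on a lipoyl arm, its binding partner PDHX, and DLD, the E3 dehydrogenase that reoxidises the arm. None of the 5 passed the test, and their summed level was 399 ± 28.1 CPM in filtered air and 410 ± 53.7 CPM after the aerosol. PDHB, with the smallest p, stood at 26.8, 32.2, 32.5, 32.0 and 38.9 CPM in filtered air libraries 1 to 5 and at 24.4, 23.3, 18.7, 30.3 and 36.1 CPM in aerosol libraries 1 to 5. Again aerosol libraries 1 to 3 were below all filtered air libraries and libraries 4 and 5 were within their range (log2 fold change -0.29 ± 0.18, adjusted p = 0.441). DLD, which also serves the 2-oxoglutarate dehydrogenase complex, stood at 167, 166, 182, 161 and 210 CPM in filtered air and at 172, 165, 202, 231 and 219 CPM after the aerosol. The groups overlapped, with aerosol libraries 4 and 5 highest (0.16 ± 0.12, adjusted p = 0.529).

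The log2 fold changes of the other 3 subunits lay close to 0. PDHA1, whose protein carries the serines that the kinases phosphorylate, was at 80.2 ± 3.07 CPM in filtered air and 76.7 ± 13.6 CPM after the aerosol. Its log2 fold change of -0.06 had a 95% interval from -0.33 to 0.20. DLAT was at 67.7 ± 5.55 and 68.3 ± 8.93 CPM, with an interval from -0.24 to 0.26, and PDHX at 41.1 ± 4.05 and 40.8 ± 2.15 CPM, with an interval from -0.26 to 0.23. Changes as large as that of CS lay outside these 3 intervals.

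The kinases PDK1 to PDK4 inactivate the complex, PDP1 and PDP2 are the catalytic subunits of the phosphatases that reactivate it, and PDPR is the regulatory subunit of the phosphatase. None of the 7 passed, and by their median these genes varied more among libraries of 1 group than the subunits did. The median coefficient of variation (SD over mean) in filtered air was 50.5% over the 7, against 9.85% over the 5 subunits, and after the aerosol 25.6% against 14.5%. This did not hold gene by gene. In filtered air PDK3 was at 13.0% and PDHB at 13.2%. After the aerosol PDK1, PDK2 and PDP1 were at 20.1, 23.8 and 24.3%, below PDHB at 25.4%. PDK1 stood at 53.4, 18.2, 69.1, 65.1 and 20.9 CPM in filtered air libraries 1 to 5 and at 43.1, 34.2, 32.3, 52.8 and 39.9 CPM in aerosol libraries 1 to 5. Filtered air libraries 2 and 5 were low, the other 3 were above every aerosol library, and the aerosol group lay between them. The log2 fold change was -0.16 ± 0.35 with a 95% interval from -0.94 to 0.61 (adjusted p = 0.869), so neither a fall nor a rise of the size seen in CS was detectable for PDK1.

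PDP1 stood at 76.4, 99.9, 28.1, 101 and 36.5 CPM in filtered air and at 78.2, 56.6, 85.7, 114 and 88.4 CPM after the aerosol. Filtered air libraries 3 and 5 lay below all aerosol libraries, and the other 3 lay within their range (0.30 ± 0.35, adjusted p = 0.720). The low libraries were not the same from gene to gene, since filtered air library 3 was lowest for PDP1 and highest for PDK1 and for PDP2. PDP2 spanned 5.43 to 32.5 CPM in filtered air and 10.5 to 27.7 CPM after the aerosol. PDPR spanned 61.2 to 144 CPM and 30.2 to 149 CPM, lowest in aerosol library 5. PDK2 (29.6 to 53.5 and 30.7 to 50.9 CPM) and PDK3 (4.41 to 6.37 and 3.91 to 7.31 CPM) overlapped throughout. PDK4, a kinase induced by fasting in muscle, was near the floor of the data, with 0 to 78 counts per library and none in aerosol libraries 4 and 5.

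**Figure D2:**
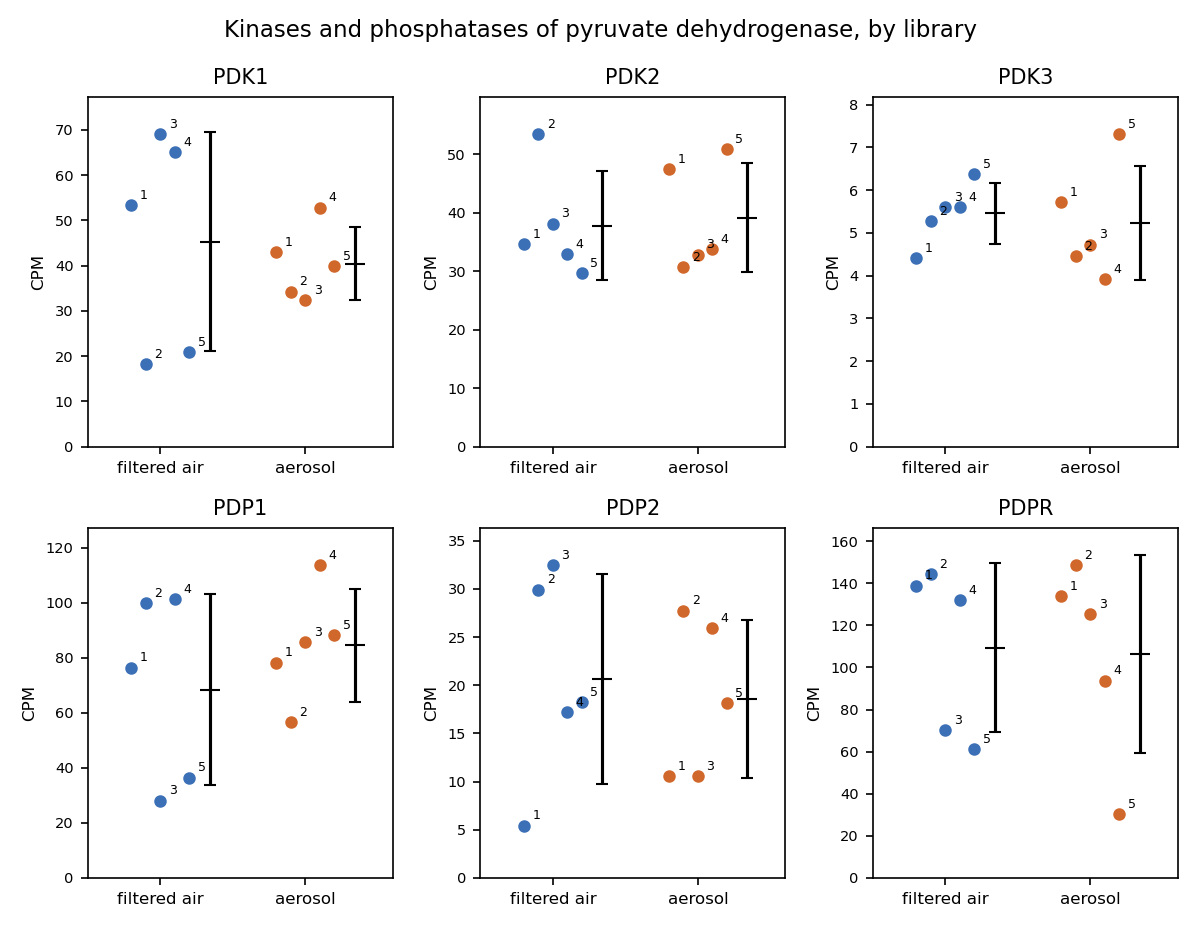
CPM of 6 kinase and phosphatase genes in each library (numbers are library numbers; bars are mean ± SD of 5 libraries; y axes start at 0). The filtered air libraries of PDK1 run from 18.2 to 69.1 CPM and those of PDP1 from 28.1 to 101 CPM, both wider than those of the aerosol libraries.

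Within each library the make-up of the kinase counts, which no scaling touches, showed the same spread. PDK1 contributed 48.2 ± 17.4% of the counts on the 4 kinase genes in filtered air and 47.6 ± 6.65% after the aerosol, and PDK2 contributed 44.7 ± 15.7% and 45.7 ± 5.62%. These shares are not corrected for transcript length and compare groups, not genes.

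The span of the cycle from citrate to 2-oxoglutarate held the member that fell. CS stood at 302, 298, 326, 349 and 306 CPM in filtered air libraries 1 to 5 and at 237, 279, 246, 211 and 180 CPM in aerosol libraries 1 to 5. All aerosol libraries lay below the lowest filtered air library, with aerosol library 2 nearest and library 5 farthest. CS fell by 27.1%, a log2 fold change of -0.46 ± 0.11 with a 95% interval from -0.70 to -0.21 (n = 5 per group, edgeR adjusted p = 0.0488). The call sat at the threshold. With other scalings the adjusted p was 0.0554 (relative log expression), 0.0725 (upper quartile) and 0.0776 (library size alone), with the replicate number as a block it was 0.0673, and without aerosol libraries 4 and 5 it was 0.0937. Leaving out any single library other than aerosol library 2 also ended the call (adjusted p from 0.0593 to 0.126), and without aerosol library 2 it was 0.0249. The direction was the same under all 20 alternatives, with log2 fold changes from -0.54 to -0.32.

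IDH2, the mitochondrial NADP-linked isocitrate dehydrogenase, stood at 131, 127, 151, 133 and 121 CPM in filtered air and at 117, 101, 83.6, 107 and 107 CPM after the aerosol. The groups did not overlap, with filtered air library 5 and aerosol library 1 close to each other. The log2 fold change was -0.36 ± 0.11 and did not pass (edgeR adjusted p = 0.0864), and under upper-quartile scaling the groups overlapped. In DESeq2 it passed (adjusted p = 0.0465), as MDH2 did (adjusted p = 0.0432). IDH1, its cytosolic counterpart, was at 108 ± 20.7 and 93.6 ± 7.08 CPM with overlapping groups (-0.21 ± 0.13, adjusted p = 0.432). ACO1, the cytosolic aconitase that also binds iron-responsive elements, was at 134 ± 12.5 and 123 ± 7.85 CPM (-0.13 ± 0.09, adjusted p = 0.534).

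The NAD-linked isocitrate dehydrogenase of the cycle is made of catalytic IDH3A and regulatory IDH3B and IDH3G, and its 3 genes did not lie on 1 side of 0. IDH3G was at 39.8 ± 6.01 and 30.0 ± 6.27 CPM (-0.41 ± 0.17, adjusted p = 0.218), and IDH3B at 69.2 ± 13.1 and 58.1 ± 6.95 CPM (-0.25 ± 0.14, adjusted p = 0.384). IDH3A was at 63.6 ± 14.4 and 67.2 ± 20.3 CPM (0.08 ± 0.20, adjusted p = 0.888), with aerosol library 2 highest at 99.7 and aerosol library 1 lowest at 45.9. Filtered air library 5 overlapped the aerosol range in all 3 genes.

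**Figure D3:**
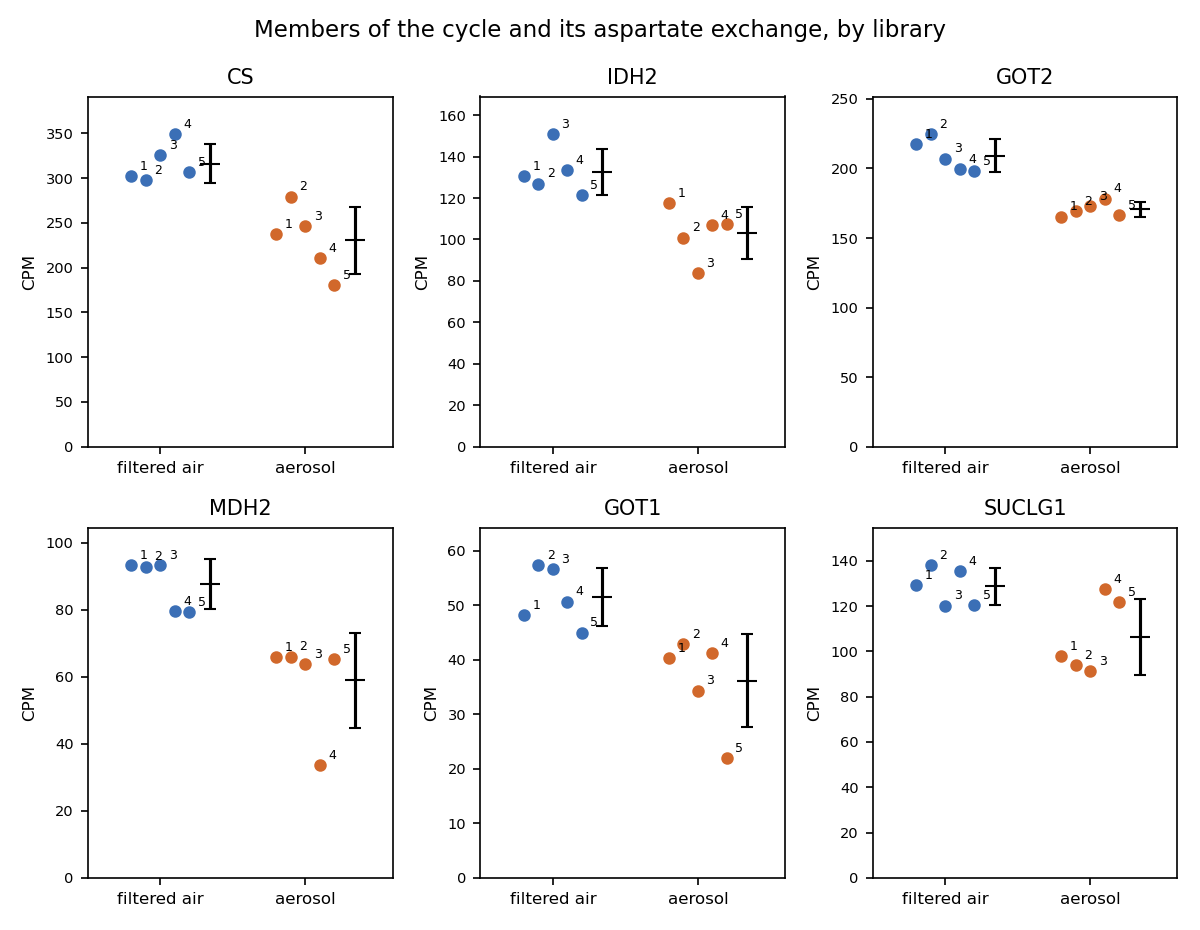
CPM of CS, IDH2, GOT2, MDH2, GOT1 and SUCLG1 in each library (numbers are library numbers; bars are mean ± SD of 5 libraries; y axes start at 0). The groups do not overlap in the first 5 genes, and in SUCLG1 aerosol libraries 4 and 5 lie at 127 and 122 CPM, within the filtered air range of 120.2 to 138 CPM.

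From 2-oxoglutarate to malate all 6 members had a log2 fold change below 0, from -0.31 to -0.03, and none passed. Under upper-quartile scaling SUCLA2, SUCLG2 and FH turned to just above 0, and of 20 alternatives they were below 0 in 16, 16 and 19. OGDH, DLST and SUCLG1 were past an unadjusted p of 0.05. OGDH, the E1 of the 2-oxoglutarate dehydrogenase complex, stood at 215, 220, 206, 204 and 193 CPM in filtered air libraries 1 to 5 and at 198, 189, 177, 150 and 138 CPM in aerosol libraries 1 to 5. Aerosol library 1 overlapped filtered air library 5, and aerosol libraries 4 and 5 were lowest (-0.28 ± 0.11, adjusted p = 0.176). SUCLG1, the alpha subunit shared by both succinyl-CoA ligases, stood at 129, 138, 120.2, 136 and 120.3 CPM in filtered air and at 97.9, 94.0, 91.1, 127 and 122 CPM after the aerosol. Here aerosol libraries 1 to 3 lay below every filtered air library and libraries 4 and 5 did not (-0.27 ± 0.11, adjusted p = 0.219). Without aerosol libraries 4 and 5 SUCLG1 was at -0.45 and passed (edgeR adjusted p = 0.0276). It was the only member to pass in that comparison, where 1.02% of all genes tested were called lower. The libraries left out were its highest after the aerosol, so the larger fall follows from leaving them out and is no separate support.

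DLST, the lipoyl-bearing E2 of the 2-oxoglutarate complex, was at 120 ± 15.6 and 96.7 ± 16.4 CPM (-0.31 ± 0.13, adjusted p = 0.236). The beta subunits that set the nucleotide of the ligase, SUCLA2 for ADP and SUCLG2 for GDP, were at 45.4 ± 11.3 and 43.3 ± 9.42 CPM and at 42.5 ± 4.61 and 41.5 ± 6.22 CPM. FH, fumarase, was at 71.5 ± 4.78 and 67.4 ± 11.4 CPM. The 95% intervals of the log2 fold change ran from -0.32 to 0.26 for SUCLG2 and from -0.36 to 0.19 for FH, and that of SUCLA2, from -0.49 to 0.36, took in a change as large as that of CS.

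The malate-aspartate exchange held 3 of the 5 members without overlap. GOT2, the mitochondrial aspartate transaminase, stood at 217, 225, 207, 199 and 198 CPM in filtered air libraries 1 to 5 and at 165, 169, 173, 178 and 167 CPM in aerosol libraries 1 to 5. Both groups were tight, and the gap between them was wider than the whole aerosol range (-0.30 ± 0.08, adjusted p = 0.0576). It passed when scaled by library size alone (edgeR adjusted p = 0.0348) and in DESeq2 (adjusted p = 0.00241). MDH2, the mitochondrial malate dehydrogenase that closes the cycle, stood at 93.3, 92.9, 93.3, 79.7 and 79.3 CPM in filtered air and at 66.0, 66.1, 63.9, 33.6 and 65.4 CPM after the aerosol. Aerosol library 4 was far below the other 4, which differed by at most a few CPM (-0.57 ± 0.17, adjusted p = 0.0905). GOT1, the cytosolic transaminase, stood at 48.2, 57.3, 56.6, 50.7 and 45.0 CPM and at 40.3, 42.9, 34.3, 41.2 and 22.0 CPM. Aerosol library 5 was lowest, and aerosol library 2 came close to filtered air library 5 (-0.51 ± 0.17, adjusted p = 0.133).

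MDH1, the cytosolic malate dehydrogenase, was at 65.1 ± 7.46 CPM in filtered air and 55.6 ± 4.82 CPM after the aerosol, with overlapping groups (-0.23 ± 0.11, adjusted p = 0.315). The malic enzymes, which turn malate into pyruvate, had fold changes above 0 that did not hold under every alternative, and none passed. Of 20 alternatives ME1 was below 0 in 4, ME2 in 1 and ME3 in 1. Cytosolic ME1 was at 44.7 ± 5.39 and 46.4 ± 9.01 CPM, mitochondrial ME2 at 73.4 ± 7.93 and 80.4 ± 16.8 CPM, and mitochondrial ME3 at 7.74 ± 2.03 and 8.28 ± 1.36 CPM. Aerosol library 4 was highest for both ME1, at 61.8 CPM, and ME2, at 104 CPM.

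Seen library by library, the members moved unevenly across the aerosol group. Relative to the mean log2 CPM of filtered air, 25, 27 and 27 of the 35 genes were lower in aerosol libraries 1 to 3 and 21 and 18 in libraries 4 and 5, and 15 to 20 were lower in single filtered air libraries. The median differences were -0.14, -0.19 and -0.25 in aerosol libraries 1 to 3 and -0.05 and -0.03 in libraries 4 and 5. CS and OGDH were lowest in libraries 4 and 5, whereas SUCLG1, MPC2, PDHB and FH were lower in libraries 1 to 3 than in libraries 4 and 5. Without libraries 4 and 5, 10 members lay wholly below filtered air, adding PDHB, MPC1, MPC2, SUCLG1 and FH, against 6.65% of all genes tested in that comparison. In each gene so added, libraries 4 and 5 were the highest of the aerosol group, so leaving them out lowers its aerosol values by construction. The log2 fold changes without libraries 4 and 5 were -0.88 for MPC1, -0.56 for PDHB, -0.39 for MPC2 and -0.27 for FH. These 4 did not pass (edgeR adjusted p from 0.0926 to 0.273). OGDH was then at -0.15, ME1 at -0.12 and ME2 at -0.09, and none of these passed.

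**Figure D4:**
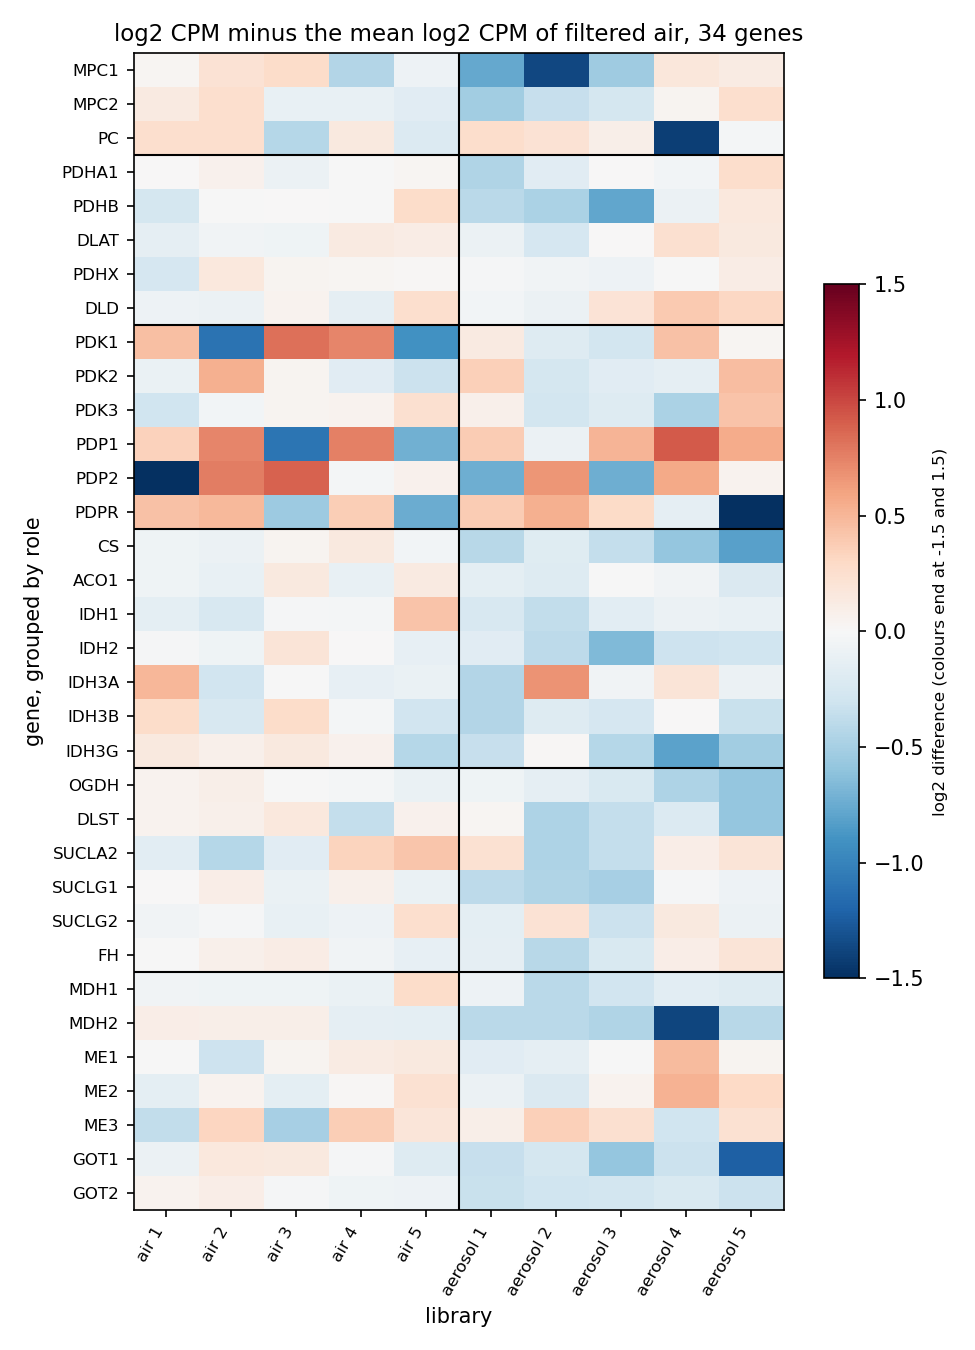
Log2 CPM of 34 genes (PDK4, with counts of 0, is left out) in each of the 10 libraries, minus the mean log2 CPM of the 5 filtered air libraries; rows are grouped by role and the vertical line parts filtered air from aerosol. Values are below 0 in all 5 aerosol libraries in CS, IDH2, GOT1, GOT2 and MDH2. This also holds for ACO1, IDH1, OGDH, SUCLG1 and MDH1, whose groups overlap. PDK1, PDP1, PDP2 and PDPR alternate between red and blue within each group.

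Together the 35 genes summed to 2737 ± 41.7 CPM in filtered air and 2421 ± 79.4 CPM after the aerosol, and to 2420 ± 39.8 and 2191 ± 88.2 CPM with CS left out. The 5 aerosol sums, from 2347 to 2554 CPM, lay below the 5 filtered air sums, from 2665 to 2770 CPM. As a share of counts outside the mitochondrially encoded genes, the members took 0.299 to 0.317% in filtered air and 0.248 to 0.290% after the aerosol. The sums are carried by strongly counted genes. Of the 10 members with a mean of at least 100 CPM, 9 had a log2 fold change below 0, with a median of -0.28, and of the 25 below that level 18 did, with a median of -0.09. This level was chosen after the values were seen.

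Other genes around the same pathway were measured in the same fit. Of 17 genes for enzymes next to the cycle and their assembly 2 fell (against 1.39% of all genes tested) and none rose (against 1.62%). Of the 17, 15 were below 0, with a median of -0.35. In 8, SDHA, SDHC and SDHD among them, every aerosol library lay below every filtered air library (against 3.93% of all genes). Before adjustment 7 were lower at p under 0.05 in edgeR (against 9.48%) and 1, NNT, was higher (against 8.78%). LDHA, which turns pyruvate to lactate, was at 675 ± 56.4 CPM in filtered air and 357 ± 30.2 CPM after the aerosol (-0.92 ± 0.09, adjusted p = 0.000546), and ACLY, which splits exported citrate, at 574 ± 39.5 and 413 ± 60.9 CPM (-0.47 ± 0.11, adjusted p = 0.0325). The 4 subunits of succinate dehydrogenase, the cycle enzyme that belongs to the respiratory chain, lay between -0.45 and -0.24 and none passed. Of 13 genes of the related branched-chain, 2-oxoadipate and glycine enzymes and of lipoylation, 12 were tested and none passed, with a median of 0.12. Of the 12, 4 were below 0 and 8 above. The highest fold changes were those of LIPT2, GLDC and LIPT1, which averaged at most 3.42 CPM in either group. Before adjustment 3 were lower at p under 0.05 in edgeR (against 9.48%) and 0 were higher (against 8.78%). In BCKDHA (-0.59 ± 0.17, edgeR adjusted p = 0.0808) every aerosol library lay below every filtered air library (against 3.93%). The most counted of the 12, DHTKD1 and DBT, were at -0.31 ± 0.14 and 0.16 ± 0.14. Of 12 transcriptional regulators known for these enzymes none passed, with a median of -0.06, and HIF1A and EPAS1, the most counted, were at 0.14 ± 0.12 and -0.30 ± 0.12.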

How the data were processed

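Each of the 10 mRNA libraries had 1 table of whole-number counts per gene for 58735 Ensembl identifiers, as deposited by the authors. HISAT, DESeq 1.8.3, featureCounts 1.5.0-p3 and the build hg38 appear in the submitters' processing notes without roles or settings, and the kit was SMARTER mRNA-Seq, per the labels. How strand and reads shared between genes were handled was not given in the sources used here. In RefSeq (GRCh38.p14) the span of another gene overlaps that of 16 of the 35 members, with introns included and on either strand. Whether reads were shared with those genes was not tested. The other 19 members, CS, MDH2 and GOT1 among them, overlap none. Named pseudogenes of 7 members had summed means of at most 0.907 CPM.

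Counts were tested with edgeR 4.0.16 (R 4.3.3), TMM scaling, filterByExpr and robust quasi-likelihood F tests with group as the only term, on 20166 genes with Benjamini-Hochberg adjustment over all of them. The common biological coefficient of variation was 0.602. CPM, the depth-scaled count, uses the TMM-scaled library size, standard errors are the absolute log2 fold change over the square root of F, and 95% intervals use the fit's degrees of freedom. At these depths no member other than PDK4 had fewer than 116 counts in a library. Libraries of a group differed by at least 64.3 in chi-square per degree of freedom, so none was a copy. The fits were also run on simulated counts with the same spread for all genes and larger changes than any member showed. That run does not cover changes of the size seen here. Alternatives were other scalings, DESeq2 1.42.0, limma-voom (limma 3.58.1), other filters and thresholds, the replicate number as a block, and libraries left out. Transcript lengths and protein sequences were not used here, so levels are not compared between genes. The miRNA libraries were not analysed here.

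Members, lists and alternatives were chosen with earlier results of these data known. All 35 members are named. Values of every library are given for the 2 members of each role with the smallest p and for members past the threshold, and GOT1 was added after its values were seen.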

Additional observations from a re-analysis of the deposited data

Results flagged for a closer look

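Among 76 groups of 5 libraries examined (each member and 3 summaries, in each group), 9 had 1 library whose gap to the nearest other exceeded 0.71 of the group's range, where chance gives about 1 in 20. In filtered air library 5, IDH3G was at 29.2 CPM (others 41.1 to 43.6), IDH1 at 143 CPM (others 90.5 to 105), MDH1 at 78.4 CPM (others 60.7 to 62.4), SUCLG2 at 50.6 CPM (others 39.2 to 41.7) and the summed members at 2665 CPM (others 2740 to 2770). In filtered air library 4, DLST was at 93.0 CPM (others 123 to 133). In aerosol library 4, MDH2 was at 33.6 CPM (others 63.9 to 66.1), ME1 at 61.8 CPM (others 39.6 to 45.8) and PC at 4.19 CPM (others 10.9 to 13.3). Without aerosol library 4 the log2 fold change of MDH2 was -0.43, against -0.57 with all 10 libraries.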

How the results depend on the processing

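Of the 35 members, 18 kept the sign of their fold change under all 20 alternatives that give one, CS with log2 fold changes from -0.54 to -0.32, and 17 changed sign at least once. The number of members called lower was 1 and became 0 with relative log expression or upper-quartile scaling, with a filter of 1 CPM in 5 libraries, at an adjusted p under 0.01 and with the replicate number as a block. It became 2 with library size alone (SUCLG1 and GOT2, not CS), where 318 of the 20166 genes tested were called lower. It became 4 in DESeq2, where 3.41% of genes were called lower. At an edgeR adjusted p under 0.10 it became 4, where 582 of 20166 were called lower. Leaving out 1 library gave 0 to 1 members and 183 to 757 genes over the whole table, against 608. DESeq2 changed 1966 genes, a threshold of 0.10 1213 and a threshold of 0.01 87. The median of the members moved from -0.15 to -0.066 with upper-quartile scaling, and the median over all genes tested moved with it, from -0.0042 to 0.0764. Without aerosol libraries 4 and 5, 10 members did not overlap, and SUCLG1 was called in place of CS. The causes were not tested. The deviations of libraries with the same replicate number correlated weakly, at 0.0022 to 0.0465, and 4 of 10 libraries correlated best with their own number. With 5 libraries per group this does not settle whether the numbers pair. The replicate block called 450 genes. Depth limits PDK4 most, with 0 to 78 counts, and the spread between libraries limits PDK1, PDP1, PDP2 and PDPR. The liquid and dose of the aerosol, transcript lengths and the handling of overlapping genes bear on how far these values carry and were not known here.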

Other observations

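A pair of genes outside the pathway, chosen after their values were seen, varied widely between libraries, both within filtered air and between the groups. ALB, the serum albumin of hepatocytes, had 3263, 4965, 4186, 512 and 488 counts in filtered air libraries 1 to 5, 654 in aerosol library 1 and 0 in aerosol libraries 2 to 5. HBB, the beta globin of red cells, had 326, 334 and 335 counts in filtered air libraries 1 to 3, 9 in aerosol library 2 and 0 in the other 6. ALB did not pass (edgeR adjusted p = 0.286), and HBB was not tested.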
